A study of Mus musculus with 15 samples.

Results

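The subject is 10 genes of the machinery that starts a cell cycle in mouse cerebellar cells: the D cyclins Ccnd1, Ccnd2 and Ccnd3, the kinase gene Cdk6, and the CDK inhibitors Cdkn1a, Cdkn1b, Cdkn1c, Cdkn2a, Cdkn2c and Cdkn2d. They were listed by name and not by a threshold on their values, though with earlier results of these data known. Of the 10 genes, 9 were matched among the 21889 genes of the deposited gene counts, and Cdkn2d was not analysed here. RNA-seq of poly(A) RNA was done in 15 libraries, 3 in each of 5 groups. The cells of 4 groups are labelled as cerebellar granule neuron precursors, the dividing cells that become granule neurons, from embryos (E15.5, genotype Math1-GFP) and after birth (days P1, P7 and P14, genotype WT). Math1 is another name of Atoh1, a transcription factor gene of these precursors. The fifth group holds cells of medulloblastoma (MB), a tumour of the cerebellum. Its mice are labelled Ptch1 heterozygous, with no age. All cells were purified on Percoll, per the labels' protocols. Age and the Math1-GFP genotype change together between E15.5 and P1, and tumour, genotype and any difference in age change together between MB and the other groups, so that these cannot be told apart. The labels do not say whether the libraries of a group came from separate animals or litters, or whether animals were pooled, and p-values measure the spread between these libraries.

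D cyclins bind the kinases CDK4 and CDK6, and the active kinases phosphorylate the retinoblastoma proteins, which frees E2F factors to turn on genes for DNA replication. Inhibitors of the INK4 family, encoded by Cdkn2a, Cdkn2b, Cdkn2c and Cdkn2d, bind CDK4 and CDK6 themselves, whereas those of the Cip/Kip family, encoded by Cdkn1a (p21), Cdkn1b (p27) and Cdkn1c (p57), bind cyclin-CDK complexes. In granule neuron precursors Sonic hedgehog drives division and raises D cyclins, and PTCH1, its receptor, holds the pathway back. Cdkn2a encodes 2 unrelated proteins from separate first exons: p16INK4a, an INK4 inhibitor, and p19ARF, which stabilises p53.

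Most reads of Cdkn2a in MB that tell its 2 starts apart lay on the Arf exon, and Cdk6 had the largest rise in MB among the members with more than a few reads at every postnatal age, so the sequences before these 3 starts are shown. They are the 250 bases up to the start in RefSeq on GRCm38.p6, 5′ to 3′ on the gene's strand, at chr4:89294620-89294869 (minus strand) for Arf, chr4:89282193-89282442 (minus strand) for Ink4a and chr5:3343643-3343892 (plus strand) for Cdk6. Capitals mark the words found on either strand out of a fixed set.
Cdkn2a, Arf start: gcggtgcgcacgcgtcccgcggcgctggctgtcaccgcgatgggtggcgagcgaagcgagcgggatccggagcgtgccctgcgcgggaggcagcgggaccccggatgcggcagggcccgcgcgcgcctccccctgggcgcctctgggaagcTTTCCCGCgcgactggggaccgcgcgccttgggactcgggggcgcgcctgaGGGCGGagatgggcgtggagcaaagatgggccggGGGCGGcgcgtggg
Cdkn2a, Ink4a start: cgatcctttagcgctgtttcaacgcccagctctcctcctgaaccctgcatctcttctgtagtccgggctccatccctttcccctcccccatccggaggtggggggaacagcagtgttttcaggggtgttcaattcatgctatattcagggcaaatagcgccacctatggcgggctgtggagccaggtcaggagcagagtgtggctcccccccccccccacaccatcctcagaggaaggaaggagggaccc
Cdk6: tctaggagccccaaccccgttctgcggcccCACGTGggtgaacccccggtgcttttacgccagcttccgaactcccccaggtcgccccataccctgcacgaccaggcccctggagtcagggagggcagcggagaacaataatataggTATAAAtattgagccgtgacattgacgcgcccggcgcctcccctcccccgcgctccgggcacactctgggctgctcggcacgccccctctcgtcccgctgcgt
The words searched were the E2F words TTTCCCGC or TTTCGCGC or TTTGCCGC or TTTGGCGC, the Gli word GACCACCCA, the E-box words CAGCTG (16.3% of all windows), CATATG (3.92%) and CACGTG, the CRE word TGACGTCA (1.79%), the GC box GGGCGG and the TATA word TATAAA, on both strands of the 300-base window that also takes in the 50 bases from the start. The Arf window held 1 E2F word, which begins 99 bases before the start, and GC boxes. E2F words lay in 2.27% of 32851 promoter windows, and in 1 of the 11 windows of these genes, 2 each of Cdkn1a, Cdkn2a, Cdkn2c and Ccnd3 and 1 each of Cdk6, Cdkn1b and Cdkn2d, while Ccnd1, Ccnd2 and Cdkn1c had no entry. The Ink4a sequence shown held none of the words, and its window had a GC box only after the start. The GC box was in 35.7% of all windows and in 8 of these 11. The Cdk6 sequence held a CACGTG word (7.15% of all windows) and a TATAAA word (13.6%). The Gli word was in 0.253% of all windows and in 0 of these 11. G and C made up 78.4% of the 250 bases before the Arf start, 60.0% of those before the Ink4a start and 66.0% of those before Cdk6. These matches describe letters, not bound sites.

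Levels are given as CPM, the TMM-scaled count relative to all reads counted in genes, as mean ± SD over 3 libraries. Libraries held 12597472 to 43443132 counts in genes. Differences are log2 fold changes from edgeR's quasi-likelihood test over 15259 genes, with Benjamini-Hochberg adjusted p-values (FDR), and genes with an FDR below 0.05 count as called. On the first principal component of all genes the libraries labelled P1 replicates 2 and 3 (51.7 and 68.8) lay nearer to P14 (83.4 to 90.2) than any P7 library (23.4 to 36.7) did. P1 replicate 3 also held more counts of the granule neuron marker list (3563 CPM in sum, against 1334 and 1365 in the other P1 libraries) and of the oligodendrocyte list (4335 against 667 and 1111). In the gene table, 6 libraries (E15.5 replicates 1 and 3, all of P7, and MB replicate 1) lacked nearly all reads of 1 unrelated gene, Tsnax, that the other 9 held. Which of these sets a library was in, called its counting set here, and age cannot be told apart for P7 against P1 or P14, while P14 against P1 lies inside 1 set. Of 8 precursor markers (Atoh1, Barhl1, Zic1, Zic2, Pax6, Mfap4, Gli1 and Gli2) none was at 0 in any library. Their summed level was 2769 to 3604 CPM at E15.5, 3051 to 3674 in P1, 4504 to 4967 at P7, 3750 to 4127 in P14 and 3155 to 4726 in MB. The members of this list went different ways. Zic1 made up the largest part (means of 1105 to 2055 CPM), Atoh1 was at 129 ± 8.53 CPM at E15.5, 47.7 ± 21.0 in P1, 30.6 ± 7.85 at P7, 11.9 ± 1.11 in P14 and 280 ± 43.0 in MB, and Mfap4 was at 726 ± 43.5 CPM at P7 and 25.0 ± 11.7 in MB. In bulk RNA, fewer cells of a type and less RNA per cell cannot be told apart.

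Between E15.5 and P1, Ccnd1, Ccnd2, Cdk6, Cdkn1a, Cdkn1b and Cdkn2c rose and Cdkn1c fell. These were 7 of the 9 members, where 46.3% of all genes tested were called. Ccnd3 and Cdkn2a were not called. No member was called between P1 and P7, where 3.15% of all genes were, and none had an unadjusted p under 0.05 (edgeR, lowest 0.0903) or was called by DESeq2. Between P7 and P14 edgeR called Ccnd1 lower and no other member, against 10.3% of all genes called, while DESeq2 called Cdk6 lower too. Between P1 and P14 edgeR called Ccnd1 and Cdk6 lower and no inhibitor, against 8.94% of all genes, while DESeq2 called Cdkn1c lower too. In MB against P7, Ccnd1, Ccnd2, Cdk6, Cdkn1a, Cdkn1b, Cdkn2a and Cdkn2c rose, Cdkn1c fell and Ccnd3 was not called. These 8 of 9 stand beside 34.5% of all genes called. In MB against P14 the same 8 were called in the same directions, beside 50.0% of all genes. These comparisons share groups and are not separate evidence. The median log2 difference of the 9 members was 0.93 at P1 against E15.5, -0.07 at P7 against P1, 0.09 at P14 against P7, 0.17 at P14 against P1, 1.41 in MB against P7 and 1.29 in MB against P14, where the medians of all genes lay between -0.01 and 0.03. Cdkn2a passed the filter on low counts only through MB, so its call in MB is fixed by that filter. The counts and medians that include Cdkn2a are not evidence about the members as a group. Asked for any difference among the 4 ages, 7 members were called (all but Ccnd3 and Cdkn2a), beside 55.7% of all genes.

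**Figure D1:**
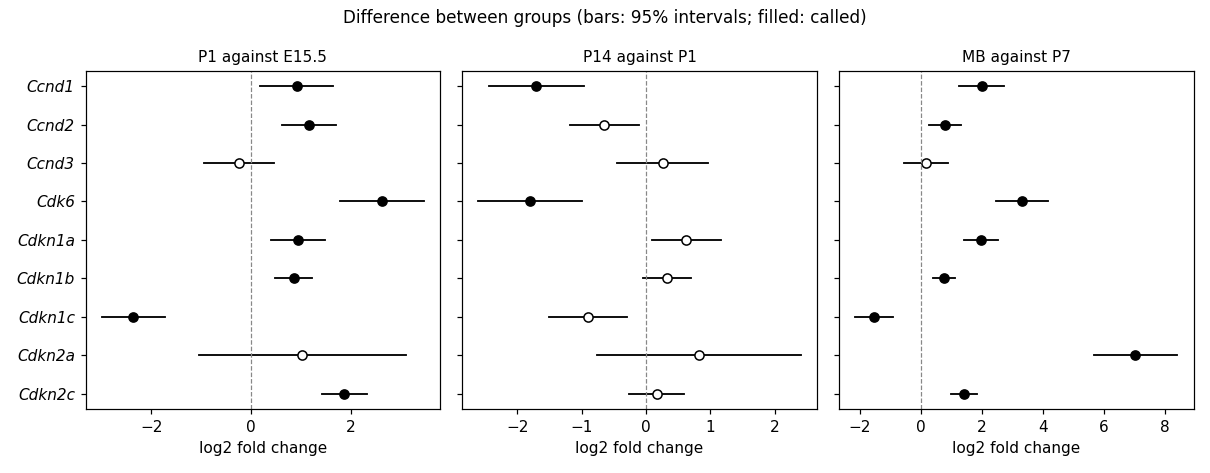
Log2 fold change of each member in 3 comparisons, with 95% intervals (lines) and filled points for members called at an FDR under 0.05. Cdkn1c alone is called lower at P1 against E15.5 and in MB against P7, and of the 9 only Ccnd1 and Cdk6 are called at P14 against P1 in this edgeR fit.

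Ccnd1 encodes cyclin D1 (ENSMUSG00000070348, mm9 chr7:152115836-152125774, minus strand). Its level was 193, 185 and 172 CPM in E15.5 replicates 1 to 3, 496, 337 and 203 in P1, 197, 209 and 305 at P7, 108, 99.0 and 112 in P14, and 448, 1223 and 1154 in MB. The P14 libraries lay below all others, and MB lay above all others except for MB replicate 1, which was under the highest P1 library. The order of the group means was MB (942 ± 429), P1 (346 ± 147), P7 (237 ± 59.5), E15.5 (183 ± 10.5) and P14 (106 ± 6.73). Of the neighbours in this order only MB and P1 differed (log2 1.45, FDR 0.00382). Ccnd1 rose by 0.92 from E15.5 to P1 (SE 0.34, FDR 0.0396) and was 1.99 higher in MB than at P7 (SE 0.35, FDR 4.28e-04), which is 3.97-fold. It fell by 1.70 from P1 to P14 (SE 0.35, FDR 0.0120) and by 1.16 from P7 to P14 (SE 0.34, FDR 0.0454).

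The calls of Ccnd1 among the ages lay near the threshold. At P14 against P7 the call was lost without any 1 of the 6 libraries (-1.30 to -0.93, FDR 0.0582 to 0.155). At P14 against P1 it was lost without P1 replicate 1 (-1.35) and without P14 replicate 1, 2 or 3 (-1.71, -1.65 and -1.74). At P1 against E15.5 it was lost without E15.5 replicate 1, 2 or 3 (0.95, 0.92 and 0.83) and without P1 replicate 1 or 2 (0.56 and 0.93), and with a term for the counting set the estimate was 0.40 (FDR 0.472). Inside the counting set of the P7 libraries, which leaves MB replicate 1 as the only tumour, Ccnd1 was 0.92 higher in MB (FDR 0.0550). LTO1 on the opposite strand overlaps 818 bases of Ccnd1 exons, and the gene table held 71.5% to 83.3% of the reads that the transcript table gave Ccnd1, in every library the lower of both.

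**Figure D2:**
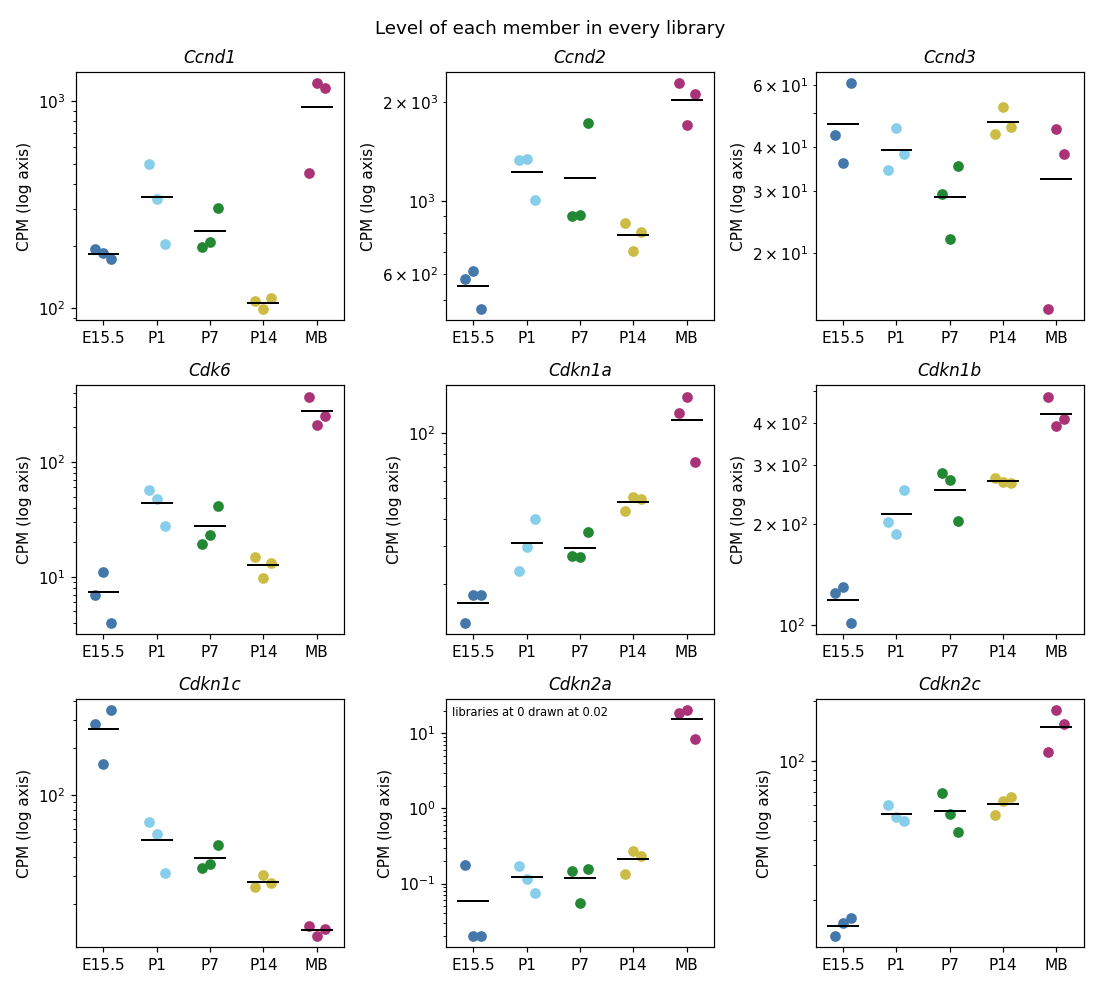
CPM of the 9 matched members in every library on log axes, with 1 point per library and a line at each group mean. MB points lie highest for Cdk6, Cdkn1a, Cdkn1b, Cdkn2a and Cdkn2c and lowest for Cdkn1c, and the groups overlap for Ccnd3.

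Ccnd2 encodes cyclin D2 (ENSMUSG00000000184, mm9 chr6:127075797-127101066, minus strand). It was at 578, 612 and 469 CPM at E15.5, 1338, 1346 and 1004 in P1, 903, 910 and 1724 at P7, 856, 702 and 802 in P14, and 2287, 1702 and 2120 in MB. E15.5 was below all other groups without overlap, and MB was above P1 and P14 but overlapped P7 through P7 replicate 3. Ccnd2 rose by 1.15 from E15.5 to P1 (SE 0.25, FDR 0.00187), a 2.22-fold change. It was 0.79 higher in MB than at P7 (SE 0.25, FDR 0.0235) and 1.37 higher than at P14 (SE 0.25, FDR 3.86e-04). The call against P7 was lost without P7 replicate 1 or 2 (0.67 and 0.63), without MB replicate 1 or 3 (0.70 and 0.76), with a term for the counting set (0.80, FDR 0.0576) and when only MB and P7 were fitted (0.82, FDR 0.0852). The change from E15.5 to P1 was 1.005 (FDR 0.0613) inside 1 counting set, where E15.5 replicate 2 was the only library of its age. In the order MB, P1, P7, P14 and E15.5, again only MB and P1 differed as neighbours (0.73, FDR 0.0315). At P14 against P1 the change was -0.64 (FDR 0.113).

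Ccnd3 encodes cyclin D3 (ENSMUSG00000034165, mm9 chr17:47642000-47736632, plus strand). It was at 43.2, 35.9 and 60.7 CPM at E15.5, 34.5, 45.2 and 38.2 in P1, 29.3, 21.8 and 35.4 at P7, 43.6, 52.0 and 45.5 in P14, and 13.8, 45.1 and 38.2 in MB. Every group overlapped at least 2 others, and no neighbours in the order P14, E15.5, P1, MB and P7 differed (FDR 0.544 to 0.979). The 95% interval of the difference between MB and P7 was -0.54 to 0.88 on the log2 scale. From P7 to P14 the change was 0.71 without overlap (FDR 0.177), and it was called when only P7 and P14 were fitted (0.71, FDR 0.0251). MB replicate 1 was lowest of all 15 libraries, and inside its counting set Ccnd3 was called lower in MB than at P7 (-1.06, FDR 0.0133), on that tumour alone. Without MB replicate 2 the difference was -0.15. Exons of Bysl on the opposite strand overlap 353 bases of Ccnd3, and the gene table held 75.2% to 87.3% of its transcript reads.

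The make-up of D cyclin RNA was compared per length, as RPKM of 1 D cyclin over the RPKM of the 3, a description with no test. By the gene counts Ccnd2 held the largest share in 14 of the 15 libraries. These counts held 99.5% to 99.8% of the transcript reads of Ccnd2 but 71.5% to 83.3% of those of Ccnd1 and 75.2% to 87.3% of those of Ccnd3, which raises the share of Ccnd2. Ccnd2 made up 58.0% ± 4.64 at E15.5, 66.9% ± 5.05 in P1, 72.4% ± 2.80 at P7 and 73.6% ± 2.19 at P14 (SD, n = 3). The share of Ccnd1 was 29.4% ± 0.677, 27.6% ± 6.49, 22.9% ± 2.24 and 15.2% ± 0.594 at the same ages, and the P14 libraries (14.5% to 15.7%) lay below all 12 others. Ccnd3 held 12.6% ± 4.25 at E15.5, 5.54% ± 1.44 in P1, 4.68% ± 0.994 at P7 and 11.2% ± 1.89 at P14. In MB the tumours differed. Ccnd1 held 50.7% and 44.2% in MB replicates 2 and 3 but 22.7% in replicate 1, where Ccnd2 held 76.1%. Ccnd3 held 1.16% to 3.10% in MB, under every other library. Without division by length its mean share was 6.09% at E15.5, 2.51% in P1, 2.07% in P7, 5.05% in P14 and 1.06% in MB. From the transcript counts per length, the mean share of Ccnd2 was lower, at 51.55% at E15.5, 61.42% in P1, 68.25% at P7 and 68.66% in P14. That of Ccnd1 was then 34.62% at E15.5, 26.44% at P7 and 18.11% in P14, and that of Ccnd3 13.23% in P14. The summed D cyclin level was 167 ± 10.04 RPKM at E15.5, 325 ± 70.0 in P1, 283 ± 101 at P7, 187 ± 13.1 in P14 and 623 ± 87.2 in MB.

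**Figure D3:**
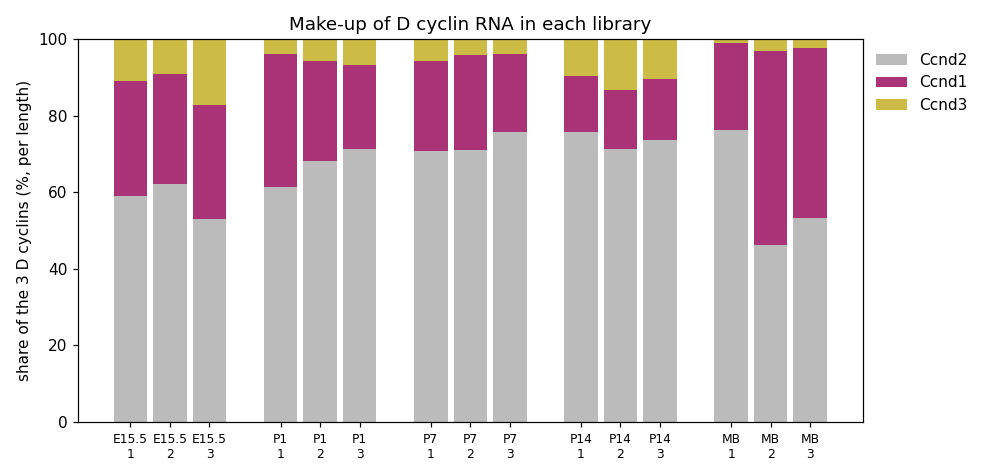
Share of Ccnd2, Ccnd1 and Ccnd3 in their summed RPKM in each of the 15 libraries, as stacked bars that add to 100%. Ccnd1 is smallest at P14, and MB replicate 1 differs from the other tumours.

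Cdk6 encodes a kinase partner of the D cyclins (ENSMUSG00000040274, mm9 chr5:3343893-3523218, plus strand), and the sequence before its start is printed above. It was at 6.89, 11.02 and 3.99 CPM at E15.5, 56.7, 47.5 and 27.5 in P1, 19.2, 23.0 and 40.9 at P7, 14.7, 9.86 and 13.3 in P14, and 370, 211 and 253 in MB. The lowest tumour lay well above the highest other library, P1 replicate 1. Cdk6 was 3.33 higher in MB than at P7 (SE 0.40, FDR 1.28e-05), a 10.04-fold difference, and 4.46 higher than at P14 (SE 0.42, FDR 8.82e-07), a 22.0-fold difference. Leaving out 1 library at a time gave 3.07 to 3.72 against P7, and the call held in all 16 alternatives. Among the ages, Cdk6 rose 6.14-fold from E15.5 to P1 (log2 2.62, SE 0.40, FDR 1.04e-04), also called in all 16 alternatives. It fell by 1.80 from P1 to P14 (SE 0.38, FDR 0.0133), and that call was lost without P1 replicate 1 or 2 (-1.57 and -1.74) and without P14 replicate 2 or 3 (-1.65 and -1.84). From P7 to P14 the change was -1.13 without overlap (SE 0.37, FDR 0.0645), and it was called by DESeq2 (-1.11, FDR 0.0319) and when only P7 and P14 were fitted (-1.13, FDR 0.0226). Exons of Gm17590 on the opposite strand overlap 60 bases of Cdk6, and the gene table held 90.3% to 96.6% of its transcript reads. P14 and E15.5, the lowest neighbours, did not pass the test (0.82, FDR 0.0855).

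Cdk4, the other kinase partner, had another order of levels. It was at 798 CPM at E15.5, 466 in P1, 458 at P7, 320 in P14 and 675 in MB on average. Its E15.5 libraries held 681, 573 and 1141 CPM, and those of P1 577, 462 and 360, with overlap. Cdk4 was called lower at P1 (-0.78, SE 0.26, FDR 0.0253), and the call was lost without E15.5 replicate 3 (-0.47, FDR 0.137), P1 replicate 2 (-0.77, FDR 0.0671) or P1 replicate 3 (-0.62, FDR 0.102), fits chosen after seeing the data. Cdk4 was not called in MB against P7 (0.56, SE 0.26, FDR 0.116). Per length, the ratio of Cdk6 to Cdk4 was 0.00705 ± 0.00509 at E15.5, 0.0595 ± 0.00907 in P1, 0.0386 ± 0.0149 at P7, 0.0258 ± 0.00718 in P14 and 0.296 ± 0.180 in MB (SD, n = 3). The ratio in MB replicate 1 was 0.502, against 0.172 and 0.215 in the other tumours, and all 3 lay above every other library, whose highest was 0.0661. Cdk4 RNA stayed more abundant than Cdk6 RNA per length in all 15 libraries.

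**Figure D4:**
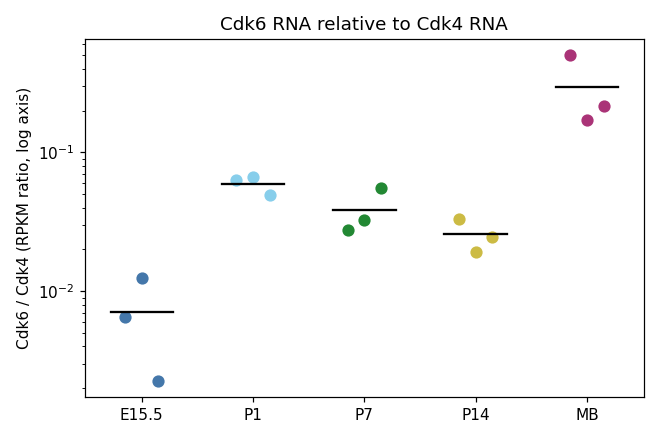
Ratio of Cdk6 to Cdk4 in RPKM on a log axis, with 1 point per library and a line at each group mean. E15.5 libraries lie lowest (0.00225 to 0.0124) and MB libraries highest (0.172 to 0.502).

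Of the Cip/Kip inhibitors, Cdkn1a (p21, a target of p53; ENSMUSG00000023067, mm9 chr17:29230717-29237667, plus strand) was at 13.2, 17.8 and 17.6 CPM at E15.5, 22.9, 29.7 and 40.1 in P1, 26.8, 26.7 and 34.7 at P7, 43.5, 50.5 and 49.2 in P14, and 125, 148 and 73.8 in MB. E15.5 lay below and MB above all other groups without overlap. Cdkn1a rose by 0.93 from E15.5 to P1 (SE 0.26, FDR 0.00796) and was 1.97 higher in MB than at P7 (SE 0.26, FDR 3.25e-05), a 3.93-fold difference. The first call was lost inside 1 counting set (0.80, FDR 0.140), and the second held in all 16 alternatives. From P1 to P14 the change was 0.63 (FDR 0.124), and leaving out P1 replicate 3 gave 0.86 (FDR 0.0414). P14 was above E15.5 by 1.56 (SE 0.26, FDR 1.69e-04). In the order MB, P14, P1, P7 and E15.5, MB differed from P14 (1.27, FDR 7.01e-04) and P7 from E15.5 (0.86, FDR 0.0155), and the neighbours between them did not pass the test.

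Cdkn1b (p27, an inhibitor of cyclin E-CDK2; ENSMUSG00000003031, mm9 chr6:134870419-134875531, plus strand) was at 125, 130 and 102 CPM at E15.5, 204, 187 and 253 in P1, 284, 271 and 204 at P7, 275, 267 and 265 in P14, and 480, 391 and 412 in MB. E15.5 lay below all other groups and MB above them, and P1, P7 and P14 overlapped or nearly did. Cdkn1b rose 1.80-fold from E15.5 to P1 (log2 0.85, SE 0.18, FDR 0.00123). It was higher in MB than at P7 by 0.76 (SE 0.18, FDR 0.00336) and than at P14 by 0.67 (SE 0.18, FDR 0.00509). These 3 calls held in all 16 alternatives each. From P1 to P14 the change was 0.33 (FDR 0.244, 95% interval -0.05 to 0.70).

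Cdkn1c (p57, an imprinted inhibitor gene; ENSMUSG00000037664, mm9 chr7:150644255-150646955, minus strand) ran the other way. It was at 287, 157 and 349 CPM at E15.5, 66.6, 56.1 and 31.5 in P1, 34.2, 36.2 and 48.0 at P7, 25.5, 30.4 and 27.04 in P14, and 14.4, 12.4 and 13.7 in MB. E15.5 lay above all other libraries and MB below them, with overlap only between P1 and P7. Cdkn1c fell by 2.36 from E15.5 to P1 (SE 0.29, FDR 1.97e-05), a 5.14-fold fall, and was lower in MB than at P7 by a log2 difference of -1.55 (SE 0.29, FDR 6.99e-04) and than at P14 by -1.03 (SE 0.29, FDR 0.00754). All 3 calls held in all 16 alternatives. From P1 to P14 the change was -0.89 (SE 0.28, FDR 0.0609), and it was called at -1.15 (FDR 0.0085) once P1 replicate 3, the lowest of its age, was left out. It was also called by DESeq2 (-0.89, FDR 0.0256), when only P1 and P14 were fitted (-0.90, FDR 0.0398), with a term for the counting set (-0.89, FDR 0.0414) and inside 1 set (-0.89, FDR 0.0224). E15.5 against MB was the widest difference of this gene, at -4.29 for MB (SE 0.32, FDR 7.09e-08), a 19.6-fold one.

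Of the INK4 inhibitors, Cdkn2c (p18; ENSMUSG00000028551, mm9 chr4:109333481-109339794, minus strand) was at 13.1, 15.2 and 16.1 CPM at E15.5, 59.9, 52.4 and 49.6 in P1, 69.2, 54.0 and 44.0 at P7, 53.3, 62.6 and 65.7 in P14, and 111, 180 and 154 in MB. E15.5 was below and MB above all other groups, and the 3 postnatal ages overlapped. It rose 3.64-fold from E15.5 to P1 (log2 1.86, SE 0.21, FDR 8.18e-06) and was 2.66-fold higher in MB than at P7 (log2 1.41, SE 0.21, FDR 8.08e-05), and both calls held in all 16 alternatives. P14 and P1 did not differ beyond their spread (0.17, FDR 0.640, 95% interval -0.27 to 0.60). The deposited start-site table holds a model for a start of Cdkn2c inside the gene. Its reads were 46.5% to 79.7% of the gene count in the 6 libraries of the counting set that lacked Tsnax reads and 37.0% to 43.2% in the other 9, without overlap. MB replicate 1 was at 79.7% and MB replicates 2 and 3 at 40.8% and 40.5%, so this share moves with the counting set, and no difference in start between the groups was read from it.

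Cdkn2a (ENSMUSG00000044303, mm9 chr4:88920377-88940523, minus strand) was near 0 at every age. It had 4, 0 and 0 counts in E15.5 replicates 1 to 3, 4, 3 and 2 in P1, 5, 2 and 4 at P7, 4, 9 and 7 in P14, and 465, 833 and 212 in MB. In CPM the tumours were at 18.4, 20.3 and 8.49, and the highest other library was at 0.271. The scaled count ratio was 145 between MB and P7 (1510 counts against 11, 95% counting interval 80.9 to 292) and 76.8 between MB and P14 (1510 against 20, 49.6 to 126). These intervals leave out the spread between libraries. By edgeR the log2 difference against P7 was 7.04 (SE 0.65, 95% interval 5.67 to 8.42). Its call is not used as evidence, because Cdkn2a passed the filter on low counts only through MB. The ages did not differ by the 4-age test (FDR 0.288). Without E15.5 replicate 1 both E15.5 libraries left were at 0 and Cdkn2a was called higher at P1 (FDR 0.0205), on 9 counts.

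The first exons tell the transcripts apart. In mm9 the Arf transcript begins with an exon of 286 bases at chr4:88940238-88940523, the Ink4a transcript with an exon of 207 bases at chr4:88927890-88928096, and 643 bases of further exons are common to both. The transcript table counts a read for each transcript it lies on. In MB replicates 1 to 3 it gave 482, 874 and 219 reads to the Arf transcript and 329, 665 and 166 to the Ink4a transcript, so the Arf exon held 153, 209 and 53 more reads than the Ink4a exon. The authors' start-site model for Arf, which takes in the common exons, held 465, 828 and 211 reads, where the gene count was 465, 833 and 212. The reads outside the Arf model, which could lie on the Ink4a exon, were thus 0, 5 and 1. Most reads of the gene lie on the common exons and tell nothing of the start. Taking these reads off the transcript counts left 153, 214 and 54 reads on the Arf exon alone. Of the reads that separate the starts, the Ink4a exon thus held 0 of 153 in MB replicate 1, 5 of 219 in replicate 2 (2.28%) and 1 of 55 in replicate 3 (1.82%). The exact binomial 95% intervals were 0% to 2.38%, 0.745% to 5.25% and 0.046% to 9.72%. They hold counting error only, with no correction for the lengths of the exons.

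**Figure D5:**
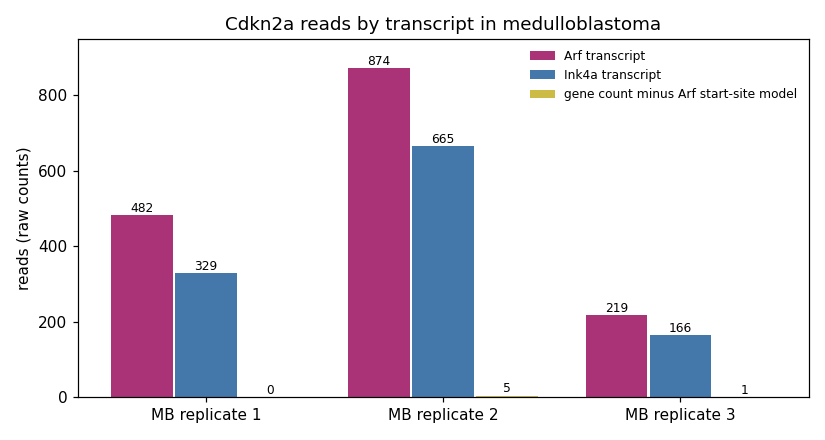
Raw reads of Cdkn2a in the MB libraries for the Arf transcript, the Ink4a transcript (both counts include the exons they have in common) and the gene count less the Arf start-site model. The last is 0, 5 and 1 read.

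Cdkn2b, the INK4 gene beside Cdkn2a and no member of the listed 10, was low in all groups, at 0.165 ± 0.0769 CPM at E15.5, 1.53 ± 0.762 in P1, 0.937 ± 0.495 at P7, 4.26 ± 0.655 in P14 and 4.90 ± 2.30 in MB (SD, n = 3). It rose from P7 to P14 (2.20, SE 0.45, FDR 0.0121), where Cdkn2a was not called (0.87, FDR 0.455), and was higher in MB than at P7 (2.41, SE 0.46, FDR 7.61e-04). MB and P14 did not pass the test for Cdkn2b (0.21, FDR 0.706, 3.25 to 7.52 against 3.51 to 4.71 CPM).

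Other genes of the G1/S step were given by a list of 28, all tested. At P14 against P1, 0 were called higher and 6 lower (21.4%, beside 8.94% of all genes), among them Rbl1 (-1.17), Skp2 (-1.23), which marks p27 for breakdown, and Cdk2 (-0.85). At P14 against P7, 1 rose (Cdkn2b) and 7 fell (28.6%, beside 10.3%). In MB against P7, 10 rose and 1 fell, which is 39.3% and close to the 34.5% of all genes. The risers included Myc (2.63, FDR 1.14e-04), Mycn (1.21, FDR 6.78e-04), Cdk2 (0.88, FDR 0.00332) and Skp2 (0.79, FDR 0.00216), and the gene that fell was Fbxw7 (-0.58, FDR 0.0164), which targets cyclin E and MYC for breakdown. Myc was at 41.3, 207 and 165 CPM in MB replicates 1 to 3 and at 20.1 to 26.3 at P7. Of the tumours only MB replicate 1, the lowest for Myc, was in the counting set of P7. Trp53, which encodes p53, rose (0.93, FDR 0.0197, with overlap of the groups) and so did Mdm2, its inhibitor and target (0.37, FDR 0.0428). Trp53 was at 74.7, 207 and 196 CPM in MB replicates 1 to 3 and at 81.2 to 87.7 at P7. MB replicate 1 thus lay below every P7 library for Trp53. In MB against P14, 20 rose and 1 fell (75.0%, beside 50.0%). At P1 against E15.5, 9 rose and 4 fell, which is 46.4% beside 46.3% of all genes, and none was called at P7 against P1 by edgeR. The median log2 change of the 28 was -0.33 at P14 against P1 and 0.42 in MB against P7, beside medians of 0.01 and 0.02 over all genes.

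Genes of DNA replication and mitosis give a readout of division. Of 14 tested, 0 rose and 11 fell at P14 against P1 (78.6%, beside 8.94% of all genes), with Mcm6 at -1.63 (FDR 9.32e-04) and Top2a at -1.01 (FDR 0.00950), and 9 rose and 0 fell in MB against P7 (64.3%, beside 34.5%), with Mcm2 at 1.44 (FDR 7.97e-05). Mki67 was not called in MB against P7 (0.31, FDR 0.476). At P1 against E15.5, where Ccnd1, Ccnd2 and Cdk6 were called higher, 4 of the 14 rose and 0 fell (28.6%, beside 46.3% of all genes). None was called at P7 against P1, 10 fell at P14 against P7 (71.4%, beside 10.3%), and all 14 rose in MB against P14 (beside 50.0%). The summed level of the list was 1629 to 1942 CPM at P14 and 2717 to 4300 in P1, where the library labelled P1 replicate 3 was lowest. In the P1 libraries, Ccnd1, Ccnd2 and Cdk6 were also lowest in that library. The inhibitors went different ways there, with Cdkn1a and Cdkn1b highest and Cdkn1c and Cdkn2c lowest. Ccnd3 lay between the other P1 libraries, and Cdkn2a had too few counts to compare.

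Markers of other cell types differed between the groups too. From E15.5 to P1 the summed level of 6 endothelial markers went from 10.9 to 32.7 CPM up to 384 to 577, that of 7 mural, fibroblast and meningeal markers from 17.4 to 34.0 up to 454 to 686, that of 8 astroglial markers from 124 to 359 up to 2459 to 3791, and that of 11 oligodendrocyte markers from 99.5 to 125 up to 667 to 4335. All 6, 7, 8 and 11 of them were called higher at P1. At P14 the endothelial sum was 716 to 748 CPM and the oligodendrocyte sum 6717 to 7226, both above P1. In MB the endothelial (18.3 to 33.7) and mural (19.2 to 26.9) sums lay under those of P7 (298 to 344 and 314 to 480). The 8 microglia and macrophage markers summed to 8.77 to 26.4 CPM at E15.5, 74.6 to 122 in P1 and 52.0 to 132 at P7. Their sum was 126 to 174 in P14 and 164 to 442 in MB, with overlap, and highest in MB replicate 1. Of these markers, 6 of 8 were called higher in MB than at P7. By the median their sum was lowest at E15.5 and highest in MB, as were the means of Ccnd2, Cdk6, Cdkn1a, Cdkn1b and Cdkn2c. The 5 markers of GABAergic interneurons summed to 457 to 569 CPM at E15.5, 229 to 269 in P1, 196 to 332 in the P7 libraries, 242 to 307 in P14 and 92.5 to 146 in MB, with 4 of 5 called lower at P1 than at E15.5 and 4 of 5 lower in MB than at P7, so that they were highest and lowest in the same groups as Cdkn1c. The granule neuron sum was 3623 to 3826 CPM at P7 and 1116 to 1629 in MB, with 4 of 8 lower in MB. The Purkinje cell sum was 293 to 838 at P7 and 26.6 to 42.9 in MB, with 5 of 6 lower. The 4 choroid plexus markers ranged from 295 to 10275 CPM within P1, from 12.5 to 1956 within P7, from 5074 to 8443 within P14 and from 33.3 to 188 in MB. None of the endothelial, mural, astroglial or microglial markers was at 0 in any library. The part of these cells in the levels of the members was not tested.

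The members were also compared with each other and with all genes across the 15 libraries, by Pearson's r of log2 CPM, as a description. The libraries of a group share their age or tumour, so these values reflect the 5 groups. Ccnd2 and Cdk6 had an r of 0.96, Cdkn1b and Cdkn2c 0.94, Cdkn1c and Cdkn1b -0.97 and Cdkn1c and Cdkn2c -0.95. Ccnd3 had an r between -0.53 and 0.37 with the other 8. Among 11576 genes that reached 5 CPM on average, the 3 most like Ccnd1 were Tfap4 (0.98), Isg20l2 (0.97) and Mycn (0.96). Those most like Cdk6 were Fancd2 (0.99), Cep68 (0.98) and Wee1 (0.98). For Ccnd2 they were Xkr5, Rbsn and Clip4 (0.96 to 0.97), and for Ccnd3 Alkbh7, Tmem115 and Ndufa3 (0.94 to 0.96). The genes most like Cdkn1a were Apobec1, Hsd17b11 and Chil1 (0.95 to 0.98), those most like Cdkn1b were Itgb2, Cacna2d1 and Il1b (0.97 to 0.98), and those most like Cdkn1c were Minar2, Syt16 and Slc30a3 (0.97 to 0.98). Cdkn2c was most like Tbata, Itga9 and Rassf3 (0.97 to 0.98).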

How the data were processed

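The authors deposited raw counts per Ensembl gene, per start-site model and per transcript for each library, not normalized. Per the submitters' processing notes, Trimmomatic, TopHat, StringTie and HTSeq were used with mm9, with versions not given in the sources used here. The strand setting is not given either, so reads of overlapping opposite genes cannot be told apart. The gene table was used; symbols were matched for 20358 of 21889 genes, and summary lines that name no gene were left out of library sizes (39.5% to 55.4% of records were counted in genes). Low genes were dropped by filterByExpr (at least 10 counts in enough libraries and 15 in all) and the rest scaled with TMM and tested with edgeR 4.0.16 in R 4.3.3, with 1 mean per group over 15 libraries and a prior count of 2 for log2 CPM. RPKM used exon lengths from the transcript table. The fit was tested on simulated data. The alternatives were DESeq2 1.42.0, other scalings, no filter, the other tables, the counting set, groups alone, a replicate block and leaving out libraries. All 10 listed genes were named, with the 3 genes most like each, except that those of Cdkn2a are not reported here. Members and lists were chosen with earlier results of these data known.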

Additional observations from a re-analysis of the deposited data

How the results depend on the processing

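Of 830 refits of 54 member differences, 762 kept direction and side of the threshold, 34 lost a call, 12 gained one and 22 changed sign, none of them called both before and after. The numbers of members called at P7 against P1 (0), in MB against P7 and against P14, and over the 4 ages stayed within 1.5 times in all alternatives run. At P14 against P7, 1 member was called, against 2 by DESeq2, 4 in a fit of the 2 groups alone and 0 with upper-quartile scaling, the start-site table (in which Ccnd1 and Ccnd2 had no value), a term for the counting set, or any 1 library left out (0 to 0). At P14 against P1, 2 were called, against 1 in the start-site table, 4 in a fit of the 2 groups alone and 0 to 4 with 1 library left out. At P1 against E15.5, 7 were called, against 4 inside 1 counting set.

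With the replicate number as a block, 0 members were called at P14 against P7 (Ccnd1 -1.15, FDR 0.068) and Ccnd1 was not called at P1 against E15.5 (0.93, FDR 0.0557). The replicate block changed no other call. Deviations of same-numbered libraries correlated by -0.24 to 0.33, and no comparison had all 3 pairs over 0.1. The labels do not say whether such libraries share more than a number, and these values cannot decide it.

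Signs changed as follows. With upper-quartile scaling Cdkn2c was at -0.056 at P7 against P1, and in the start-site table at -0.21 at P14 against P7. With the counting set term Ccnd1 (from -0.54 to 0.17) and Ccnd3 (0.077) turned at P7 against P1, Cdkn1c (from -0.51 to 0.082) and Cdkn2c (-0.22) at P14 against P7 and Ccnd3 (-0.27) in MB against P7. Only E15.5 and MB held libraries of both sets, so that term rests on these groups. Inside 1 set Ccnd3 was at 0.13 at P1 against E15.5 and, in MB against P7, at -1.06, where it was called on 1 tumour (FDR 0.0133). With 1 library left out, the ranges that changed sign were -0.44 to 0.10 for Ccnd2, -0.25 to 0.16 for Cdkn1a, -0.30 to 0.32 for Cdkn2a and -0.13 to 0.19 for Cdkn2c at P7 against P1, -0.046 to 0.15 for Cdkn1b and -0.027 to 0.28 for Cdkn2c at P14 against P7, and -0.15 to 0.53 for Ccnd3 in MB against P7. The cause was not tested. Without length correction the share of Ccnd2 was 70.5% to 83.6% over the ages and that of Ccnd3 1.06% to 6.09% over the 5 groups. From the transcript counts per length, the share of Ccnd2 was 51.55% to 68.66% over the ages.

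With 3 libraries a group, the intervals given bound what each comparison can show, and Cdkn2a counts outside MB are too few for a comparison of ages.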
